A study of Homo sapiens with 4 samples.

Results

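NANOS1 and PUM2 encode a pair of RNA-binding proteins that act together as translational repressors. Both were selected on the arrays by gene name, and each was represented by 1 of the 14297 gene probes, so the members were 2 of 14267 named genes. The arrays compared K562 cells, a human erythroleukemia line, after 4 h with the lipid droplet-binding thalidomide analog AC-1041 with control K562 cells. The sample labels describe the control cells as untreated and give no dose, while the methods of the study name a DMSO control. Each of 4 arrays received both RNAs, one in each dye. Cy5 marked the treated RNA on arrays 1 and 2, called the Cy5 arrays here, and Cy3 marked it after the dye swap, on arrays 3 and 4, the Cy3 arrays. Only 1 cell line was measured. Since bulk RNA was measured, fewer cells with a transcript and less of the transcript per cell cannot be told apart.

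Pumilio proteins bind short sites in the untranslated tail of messenger RNAs through a repeat domain that reads the RNA base by base. Nanos proteins carry a zinc finger domain that joins Pumilio on the RNA, and the complex recruits the CCR4-NOT deadenylase, which shortens the poly(A) tail. The partnership was first described in the fly embryo and germ line. PUM2 is present in most human tissues, while NANOS1 has a narrower expression.

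The probes are the sequences that stand for these transcripts on the array, and 30 of the 60 bases of each are shown, 5′ to 3′. The letters in capitals are the TGTA that opens the Pumilio consensus site.
NANOS1: tacagctccttatcgttctaTGTAccaggt
PUM2: ctcccaagtaagagcaaatcTGTAtgataa
The NANOS1 probe lies on the plus strand of chromosome 10 of hg18, chr10:120780857-120780916. The PUM2 probe lies on the minus strand at chr2:20313226-20313285. Which part of each transcript the probes cover was not assigned, since no annotation of hg18 was used here. The letters TGTA occur in 23.3% of all gene probes, so their presence is not particular to this pair. The full consensus TGTANATA was found in 0 of the 2 probes on either strand, against 0.846% of all gene probes on the sense strand. The longest run that the NANOS1 probe shared with any other gene probe was 12 bases.

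The cells carried the markers of their label. All 8 K562 markers with a probe were well above background in the control cells on at least 3 arrays, and 7 of them, globin genes and GATA1 among them, on 4. Of 8 markers of other lineages 4 were well above background on no array, while 2, EPCAM among them, were well above it on 4. The arrays differed in background. The negative control spots had an SD between 226 and 308 on arrays 1 and 2, and between 27.8 and 40.5 on arrays 3 and 4, in either dye. Dye orientation and width of the background therefore cannot be told apart. Across the 8852 probes tested, the log2 ratio (treated over control throughout) correlated at 0.81 between arrays 1 and 2 and at 0.94 between arrays 3 and 4, but between -0.29 and -0.12 across the orientations. Correlations across probes are a description, since probes of 1 array share its dyes and its scan.

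NANOS1 gave the lower signal in treated cells on every array, but only arrays 3 and 4 measured it in both. The Cy5 arrays gave log2 ratios of -1.42 and -1.56, and the Cy3 arrays gave -1.53 and -1.70. All 4 values lay below 0, which held for 8.28% of the genes tested, and the orientations overlapped. The mean of these ratios was -1.55 ± 0.12 (SD, n = 4 arrays), and it includes arrays 1 and 2, where the treated signal was not well above background. The gene was chosen with these ratios known, and they are given as a description with no test. Taken with that limit, this was the lowest mean log2 ratio among the 8836 genes tested, followed by KCNJ8 (-1.32 ± 0.32), a potassium channel subunit, and NFE2 (-1.31 ± 0.24 over 3 arrays), an erythroid transcription factor. On single arrays NANOS1 was the lowest gene on none, with ranks from the lowest of 64, 35, 6 and 4 on arrays 1 to 4. Ratios under -1 on all 4 arrays were computed for 4 genes, 0.0453% of those tested, and the others were KCNJ8, AMD1 and SNHG8. For NANOS1 a difference of that size was measured on arrays 3 and 4 only, which share a dye orientation. The SD of NANOS1 over the arrays was 0.12, against a median of 0.32 over all genes tested.

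**Figure D1:**
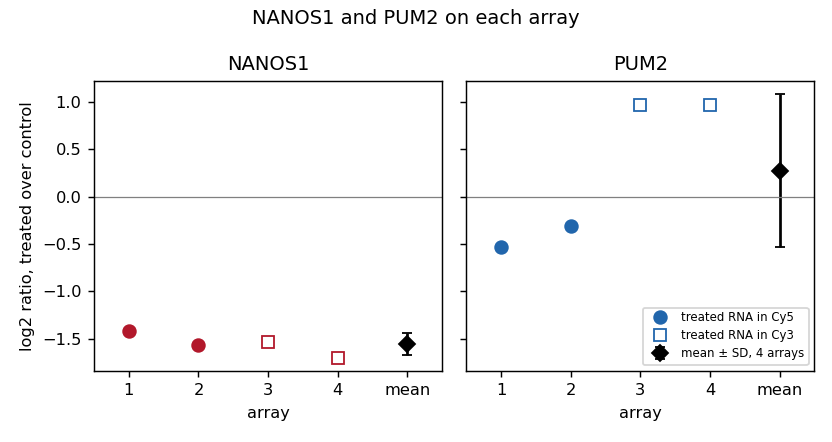
Log2 ratio, treated over control (vertical axis), on arrays 1 to 4 (horizontal axis) for NANOS1 and PUM2, with filled circles for treated RNA in Cy5, open squares for Cy3 and a diamond for the mean with its SD. NANOS1 lies between -1.70 and -1.42 on every array, whereas PUM2 changes sign between the orientations.

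NANOS1 gave a dim spot, and its detection differed between channels and arrays. As scanned, the Cy5 arrays gave it intensities of 851 and 793 for control cells against 316 and 330 for treated cells. The Cy3 arrays gave 670 and 696 for control cells against 294 and 228 for treated cells. The control channel was thus the brighter one on all 4 arrays, whichever dye it carried. Control cells gave a signal well above background on arrays 1, 3 and 4, and treated cells on arrays 3 and 4. The treated signal was within 0.11 SD of the mean of the 77 negative control spots on arrays 1 and 2, but 4.32 SD above it on array 3 and 3.33 SD on array 4. In the control channel the distance was 2.10 and 1.68 SD on arrays 1 and 2 and 15.2 and 14.2 SD on arrays 3 and 4. Only arrays 3 and 4 therefore measured NANOS1 in both channels, and there the level was 2.90-fold and 3.25-fold lower in treated cells. Both are Cy3 arrays, so treatment and dye cannot be told apart in these measured ratios. On array 1 the treated level is only bounded. With the dimmest probe well above background as the limit, the control level was at least 1.36-fold higher, and a stricter limit would give a smaller fold. Array 2 was well above background in neither channel, and its ratio of -1.56 is a ratio of dim signals.

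**Figure D2:**
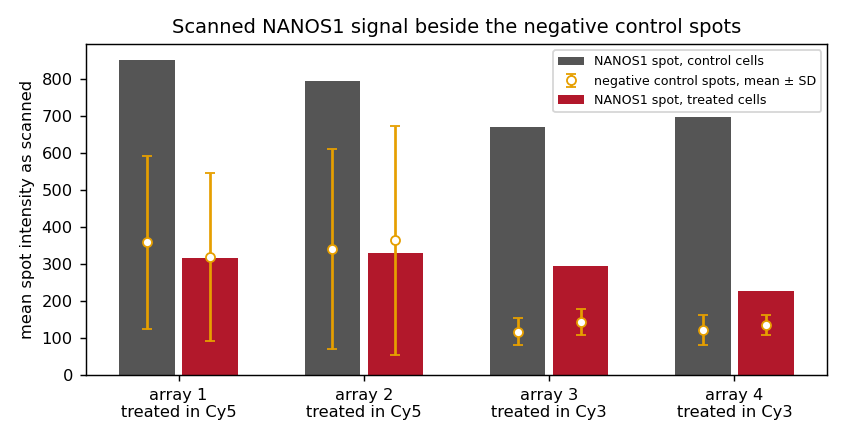
Scanned intensity of the NANOS1 spot (bars, arbitrary units from 0) in control and treated cells on arrays 1 to 4, with the mean and SD of the 77 negative control spots in the same channel (open circles). The control bar is the taller one on every array, and the treated bar stands clear of the negative controls on arrays 3 and 4 but not on arrays 1 and 2.

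The size of the NANOS1 difference moved with the processing while its sign did not. With the processed signals of Feature Extraction, the image analysis program, the log2 ratio was -2.07. Its Cy5 arrays were then at -2.05 and -2.33 and its Cy3 arrays at -1.58 and -2.31. Over the 13 alternative settings read for it, the log2 ratio lay between -2.07 and -1.43, and was below 0 in 13. Not all of these could move it: without the dye term it is the same mean over the arrays, -1.55.

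PUM2 did not show 1 direction. The Cy5 arrays gave log2 ratios of -0.53 and -0.31, and both Cy3 arrays gave 0.97. The values of the orientations did not overlap, and each pair lay on its own side of 0. The mean of 0.27 ± 0.81 (SD, n = 4 arrays) was smaller than its SD. PUM2 was chosen with these ratios known, and no test is given for it. An opposite sign of the mean log2 ratio between the orientations was common on these arrays, in 61.7% of the genes tested. The gap between the orientations was 1.39 for PUM2, wider than for 92.2% of the genes tested, and 0.13 for NANOS1, wider than for 13.6% of them.

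PUM2 was detected without difficulty, so its split between the orientations did not come with a dim spot. For control cells its intensities were 8411 and 8121 in the Cy5 arrays and 4974 and 6073 in the Cy3 arrays. For treated cells they were 6120 and 10031, then 10349 and 11143. Every one of these 8 signals was well above background. As scanned, the treated signal was the brighter one on array 2, and its log2 ratio of -0.31 was negative only after normalization. With each array centred on its median instead, that ratio was -0.07.

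**Figure D3:**
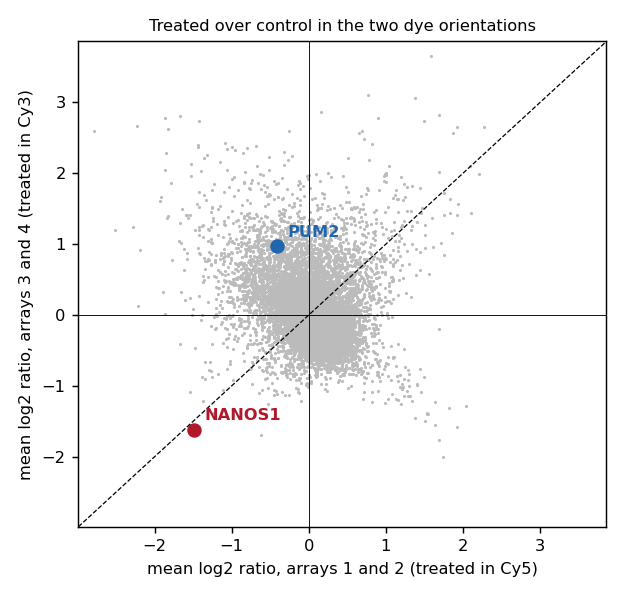
Mean log2 ratio, treated over control, of every probe tested in the Cy5 arrays (horizontal axis) and in the Cy3 arrays (vertical axis); the dashed line marks equal values. NANOS1 lies near the line at -1.49 and -1.62, and PUM2 lies away from it at -0.42 and 0.97.

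The base composition of the probes moved with the dye orientation. Across the 8852 probes tested, the GC content of the probe correlated with the log2 ratio at 0.36 in the Cy5 arrays and at -0.56 in the Cy3 arrays. The PUM2 probe had a GC content of 35%, against a median of 43.3% over the probes tested. The 1328 tested probes with the same GC content as PUM2 had medians of -0.28 in the Cy5 and 0.56 in the Cy3 arrays, the same signs as PUM2. For NANOS1, at 36.7% GC, the 556 probes of its GC content had medians of -0.18 and 0.37, while NANOS1 itself was at -1.49 and -1.62. A correction of each array for probe GC content reduced the gap of PUM2 from 1.39 to 0.59, with means of -0.15 in Cy5 and 0.44 in Cy3. For NANOS1 the correction widened the gap from 0.13 to 0.76, with means of -1.29 and -2.05. Its corrected Cy5 arrays (-1.19 and -1.38) and Cy3 arrays (-1.95 and -2.14) no longer overlapped. The part of base composition in these values was not tested otherwise.

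**Figure D4:**
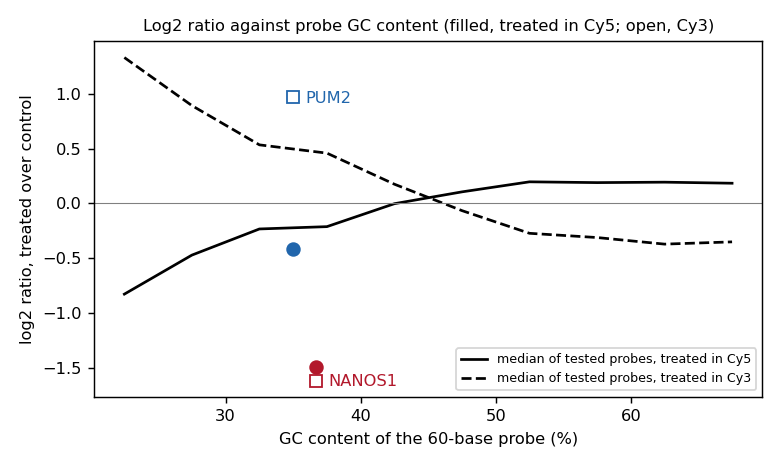
Log2 ratio, treated over control (vertical axis), against the GC content of the probe in percent (horizontal axis). Lines are medians of the tested probes in steps of GC content with the treated RNA in Cy5 (solid) and Cy3 (dashed), and symbols are the means of NANOS1 and PUM2 in Cy5 (filled) and Cy3 (open). PUM2 lies beyond the medians of both orientations on the same side as each, and NANOS1 lies below both.

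Of the list of other family members and described partners of Nanos and Pumilio, DDX20 (0.07 ± 0.16), an RNA helicase, SNAPIN (0.14 ± 0.10), a SNARE-associated protein, and PHAX (-0.06 ± 0.31), an RNA export adaptor, did not pass the test. NANOS3, BOLL, DAZL and CTNND1 had a probe but were not tested, and NANOS2, PUM3, TRIM2 and TRIM71 had no probe under these names.

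The wider machinery of repression and decay was read from the same fit, in 5 lists of 86 genes that held neither NANOS1 nor PUM2. The fit held a term for treatment and one for the dye, so its errors rest on differences between arrays of the same orientation. Of the 67 genes tested, 20 were higher and 6 lower in treated cells at a limma adjusted p under 0.05, which is 29.9% and 8.96%. Over all genes tested, 24.3% were higher and 13.0% lower. The 20 include CPEB3 and AGO4, which passed the filter on dim spots through the treated cells. The 67 genes had a median log2 ratio of 0.06, against 0.02 over all genes tested. Without array 3 the numbers were 12 and 1, without array 4 they were 8 and 0, and on arrays 3 and 4 alone they were 33 and 9. For the last, treatment and dye cannot be told apart. The counts over all probes moved as well, from 2155 higher and 1152 lower in the main fit. They were 1241 and 439 without array 3, 1008 and 283 without array 4, and 3392 and 2781 on arrays 3 and 4 alone. Of the 20 higher genes 12 were above 0 on all 4 arrays, against 1148 of the 2150 higher genes among all those tested. Of the 6 lower genes 1 was below 0 on all 4, against 542 of 1150. EIF4E, of the 6, was measured on 3 arrays and was below 0 on each.

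The deadenylases and their adaptors had 6 of 19 tested genes higher and 3 lower, which is 31.6% and 15.8%, near the 24.3% and 13.0% over all genes. CNOT1, the scaffold of the CCR4-NOT complex on which Nanos and Pumilio dock, had a log2 ratio of 0.05 ± 0.11 (SD, n = 4) and did not pass the test. BTG3, of the BTG and TOB family of CCR4-NOT adaptors, rose on all 4 arrays with a log2 ratio of 1.1 ± 0.51 (limma adjusted p = 9.8e-05). Of the same family, BTG2 (-0.29 ± 0.39) and TOB1 (-0.26 ± 0.37) were lower by the test, but each was on the other side of 0 on 1 array, and BTG1 (-0.14 in the fit, over 3 arrays) did not pass. The members of this family therefore did not move one way. The catalytic subunit CNOT6L (0.53 ± 0.75), the ubiquitin ligase CNOT4 (0.52 ± 0.24) and PAN2 (0.36 ± 0.33), of the PAN deadenylase, were higher by the test. CNOT6L was at -0.34 and 0.17 on the Cy5 arrays against 1.29 and 1.01 on the Cy3 arrays. PAN2 was at 0.05 and 0.14 against 0.52 and 0.75. Of the genes named in this list, BTG2 (adjusted p = 0.16) and TOB1 (0.058) were no longer past the threshold in limma without array 3. Without array 4 this held for BTG2 (0.063), TOB1 (0.21), CNOT4 (0.052) and PAN2 (0.079).

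Decapping genes had 3 of 16 tested genes higher and 1 lower, or 18.8% and 6.25%, which is not above the shares over all genes. The 3 higher genes encode subunits of the decapping enzyme. DCP1A rose with a log2 ratio of 0.72 ± 0.45 (SD, n = 4), between 0.22 on array 2 and 1.15 on array 3. DCP2, the catalytic subunit, was at 0.29 ± 0.17 and DCP1B at 0.26 ± 0.16, each above 0 on all 4 arrays. EIF4E, which binds the cap and opposes decapping, was lower at -0.25 ± 0.02 over 3 arrays, since its spot on array 1 was marked as an outlier. Without array 3 DCP2 and DCP1B had limma adjusted p-values of 0.10 and 0.071, and without array 4 of 0.12 and 0.20.

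Other RNA-binding repressors had 8 of 18 tested genes higher and 2 lower (44.4% and 11.1%, against 24.3% and 13.0% over all genes), with a median log2 ratio of 0.22 against 0.02. Of the 8, CPEB3 and AGO4 were well above background on 2 treated but on 0 and 1 control arrays. They passed the filter through the treated cells, so their calls are not counted as support. The 44.4% and the median include both, so the difference from all genes is not read as a result. AGO4, an Argonaute protein, was named after its values were seen. ZFP36, which binds AU-rich elements and is an immediate early gene, rose most, with a log2 ratio of 1.22 ± 0.42 (SD, n = 4) and above 0 on all 4 arrays. Of the cytoplasmic polyadenylation element binding proteins, CPEB2 (0.76 ± 0.64) and CPEB4 (0.78 ± 0.84) were higher by the test, and both were dim, with treated cells well above background on 2 arrays each. CPEB3 was well above background in control cells on no array and in treated cells on 2 arrays, so no lower bound over the 4 arrays is given. The log2 ratios of CPEB3 were -0.16 and 0.14 on the Cy5 arrays, and 1.98 and 1.87 on the Cy3 arrays. FXR1, a relative of the fragile X protein, was higher at 0.60 ± 0.47. The log2 ratio of CPEB4 was 1.79 on array 2 and -0.28 on array 1, and it came to 0.26 without array 2 and 1.29 without array 1. CPEB4 was no longer past the threshold in limma without array 3 (adjusted p = 0.15) or array 4 (0.18).

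Of 10 tested messenger RNAs described as Pumilio targets, 2 were higher and 0 lower, which is 20% higher, near the 24.3% over all genes, and the median log2 ratio was 0.02. The higher ones were CDKN1B (0.57 ± 1.30), a cyclin-dependent kinase inhibitor, and E2F3 (0.31 ± 0.72), a cell cycle transcription factor. Both changed sign with the dye. CDKN1B was at -0.75 and -0.35 in the Cy5 arrays against 1.78 and 1.57 in the Cy3 arrays, and E2F3 at -0.45 and -0.17 against 0.95 and 0.90. E2F3 was no longer past the threshold in limma without array 3 (adjusted p = 0.092) or array 4 (0.092). Over the 10 genes the median was -0.36 in the Cy5 and 0.34 in the Cy3 arrays, against 0.03 and 0.04 over all genes tested. PUM2 had the same signs, but so did the medians of the probes of its GC content. A link between PUM2 and these genes was not tested. Of all gene probes 121 held the consensus TGTANATA themselves. The 77 of these that were tested had a median log2 ratio of 0.08, against 0.02 for the other 8775, with a median GC content of 36.7% against 43.3%.

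**Figure D5:**
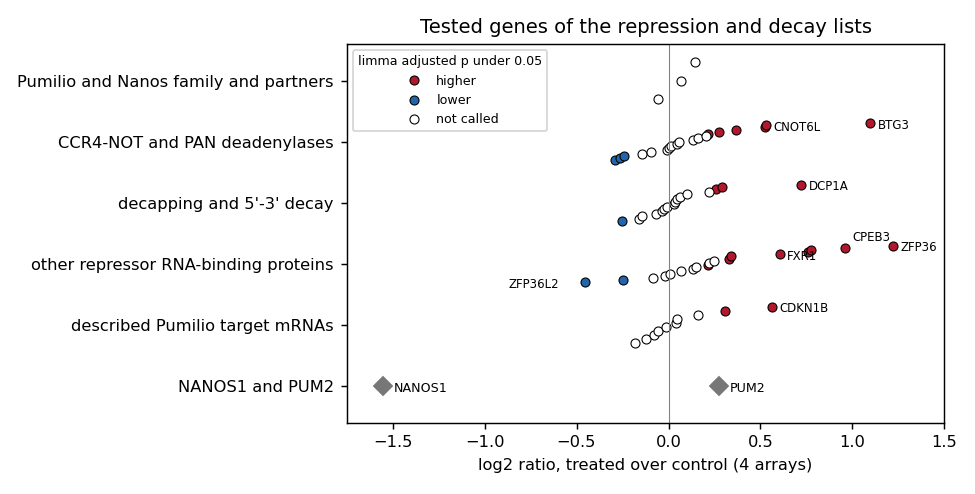
Log2 ratio, treated over control (horizontal axis), of the tested genes in 5 lists (rows), leaving out 1 that is not reported here, with red for genes higher and blue for genes lower at a limma adjusted p under 0.05, and grey diamonds for NANOS1 and PUM2, which were not tested. The genes of the lists lie between -0.46 and 1.22, and NANOS1 lies below all of them at -1.55.

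The genes whose ratios on the 4 arrays lay closest to those of each member were found by Euclidean distance over 7974 genes measured on all arrays. For NANOS1 they were SNHG8 (a distance of 0.72), KCNJ8 (0.77), AMD1 (0.96), LOC442517 (1.04) and SLC40A1 (1.23). SNHG8 is a host of a small nucleolar RNA, AMD1 an enzyme of polyamine synthesis and SLC40A1 the iron exporter. All 5 were below 0 on every array. For PUM2 they were MORF4L2 (0.09), NEDD1 (0.13), PPP3CC (0.13), LOC162632 (0.13) and SNX4 (0.13). These 5 were below 0 on arrays 1 and 2 and above 0 on arrays 3 and 4. The genes were picked for closeness to a member, so the signs of both sets follow from the choice and are not a separate result. LOC162632 was well above background on 2 treated and 0 control arrays, so it passed the filter through the treated cells.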

How the data were processed

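The authors scanned 4 two-colour arrays and quantified them with Feature Extraction 9.5.1.1. The deposited files give, for each spot, intensity, local background, flags, processed signals and Cy5 over Cy3 as a log10 ratio. A deposited table of the series holds that log10 ratio turned to treated over control: from 99.9% to 100% of its values lay within 0.001 of it. Background was removed here with normexp (offset 50, all spots) and loess (span 0.3) applied per array, giving control spots and spots marked as outliers no weight. Marked spots, 8.08% on array 1 and between 1.57% and 2.33% elsewhere, were then dropped. Probes that passed Feature Extraction's well-above-background flag for either dye on 2 or more arrays entered limma 3.58.1 (R 4.3.3), which modelled treatment and dye; p-values were adjusted (Benjamini-Hochberg) over 8852 probes. This step was tested on simulated data.

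Transcript accessions were matched to RefSeq (GRCh38.p14, names only) for 12002 of 14297 probes, and the brightest probe stood for its gene. Probe positions and sequences are the files' own, on hg18. Members and lists were chosen with earlier results of these data known. Named genes were both members, up to 5 genes past the threshold per list with the largest difference, CNOT1, TOB1 and BTG1, and the 5 genes nearest to each member. Some named items are not reported here, but counts over lists include them. The methods describe samples and arrays in quadruplicate with a dye swap. They do not say that the samples came from separate cultures or which array held which. The p-values therefore measure the spread between arrays of the same dye orientation, and the number of arrays limits the precision. The spread between the orientations goes into the dye term. For the bound on NANOS1, channels were taken after loess and Aquantile. The dim one was set at the dimmest probe well above background or its own level if higher, and dye bias remains possible. All files carry 1 scan date, so no scan block was fitted. No spot was saturated. Alternatives covered background, normalization, values, filters, marked spots, the dye term and each array left out. A background from negative control spots, a GC correction and the Cy3 arrays alone were added after seeing the data.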

Additional observations from a re-analysis of the deposited data

Results flagged for a closer look

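DCP2, the catalytic subunit of the decapping enzyme, stood out on array 2, with a log2 ratio of 0.55 against values of 0.19 to 0.22 elsewhere. That distance spans 0.926 of its range over the arrays, more than Dixon's criterion allows for 4 values. It was the 1 case among 30 genes examined, and about 1 in 20 would pass by chance.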

How the results depend on the processing

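The log2 ratio of NANOS1 was -1.43 with no background subtraction, and -2.07 both from the series value table and from the processed signals, and with each array left out it ranged from -1.59 to -1.51. It could not be fitted where all 8 signals had to be well above background. That of PUM2 was 0.97 on arrays 3 and 4 alone, lay between 0.15 and 0.97 over 14 settings, and ranged from 0.22 to 0.33 with each array left out.

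Without a dye term, limma called 52 probes higher and 4 lower and 0 list genes higher and 0 lower (7 and 0 at an unadjusted p under 0.05). With median centring 596 probes were lower and 3 list genes, and 79.9% of the called probes were higher, against 65.2% with loess, 57.9% from the processed signals, 52.3% with the GC correction and 54.9% on arrays 3 and 4 alone. Where all 8 signals had to be well above background, 1342 of 5587 probes and 11 of 53 list genes tested were higher. The main fit gave 2155 of 8852 probes and 20 of 67 list genes. The GC correction gave 1603 probes and 12 list genes lower, against 1152 and 6 in the main fit. Arrays 3 and 4 alone gave 3392 probes higher and 2781 lower and 33 list genes higher, and TOB1 turned to 0.0376 (adjusted p = 0.73).

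With each array left out, 1008 to 2590 probes were higher and 283 to 1469 lower, as were 8 to 24 and 0 to 7 list genes (3 at an unadjusted p under 0.05 without array 4). CPEB4, DCP1B, EIF4E and PAN2 lost their calls from the processed signals and the series table, CPEB4 and EIF4E with no filter or marked spots kept, EIF4E and TOB1 with median centring, DCP1B and E2F3 with the GC correction, and DCP1B and DCP2 on arrays 3 and 4 alone. BTG1 gained one with the GC correction (adjusted p = 0.037). No other cause was tested. Signal over background on arrays 1 and 2 limits NANOS1 and the CPEB genes.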
